A study of Homo sapiens with 6 samples.

Results

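Gene expression at 24 h after irradiation was compared with expression at 8 h in the esophageal squamous cancer line TE13 and in TE13R, a radioresistant line derived from TE13 by repeated fractionated irradiation. The arrays were chosen by their titles, 2 titled 24 h and 2 titled 8 h, so 4 of the 6 arrays of the series entered the comparison. Each line gave 1 array at each time, and the line served as the repeat. All cells were grown in high-glucose RPMI 1640 with fetal bovine serum and irradiated with X-rays from a linear accelerator. The labels and methods used here state no dose for it. The methods describe profiling in triplicate, but no replicate number stands in these labels. The labels name the source as squamous tissue, although both are cell lines. TE13R had been selected by radiation, and both lines share 1 origin, so they are not independent tumours. No unirradiated culture was taken at 8 h or 24 h, so the effect of radiation and that of time in culture cannot be told apart. The p-values measure only the spread between single arrays of these lines.

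Cells that cannot fold or make protein at the normal rate use a few well-known programmes. In the unfolded protein response, sensors in the membrane of the endoplasmic reticulum (ER) raise chaperones and folding enzymes through ATF6 and XBP1. The kinase PERK, like the amino acid sensor GCN2, slows translation and favours ATF4, a transcription factor that raises amino acid transport, amino acid synthesis and the death-linked factor DDIT3 (CHOP). Ribosome biogenesis, the nucleolar making of ribosomes, is among the costliest activities of a growing cell. Interferon-stimulated genes answer foreign or misplaced nucleic acid, and p53 governs arrest and death genes after DNA damage.

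RNA was hybridised to Illumina Human-6 V3 arrays of 1 colour, and the values are deposited intensities on a linear scale, already background-subtracted. The 6 arrays had medians of 7.95 to 7.96, and about 37.3% of the probes on each lay above a detection limit of 20.2, set at 3 times the spread of the values below 0. On the log2 scale the 8 h and 24 h arrays correlated with each other at 0.960 to 0.978, while the 0 h arrays correlated with them at 0.918 to 0.953. The 0 h arrays therefore stood apart and did not enter the comparison of 24 h with 8 h. They entered only an alternative filter and the alternative fits that start from all 6 arrays. Where 1 array was left out, they also helped set the difference between the lines, and so the estimate itself. Their levels are given as a description. Of 12 squamous epithelial markers 9 were measured here, all of them above the limit on all 4 arrays, with a summed intensity of 63316 in TE13 and 51864 in TE13R at 24 h, and of 76043 in TE13 and 79327 in TE13R at 8 h. The defining leukocyte marker PTPRC was below the limit on all 4 arrays (3.3 to 11.8). Of the fibroblast markers 3 of 8 were measured, and none was called. COL1A1 stayed between 2.4 and 44.4. PDGFRA was above the limit on all 4 arrays, with 227 in TE13 and 252 in TE13R at 24 h, against 294 and 269 at 8 h. Of the endothelial markers 4 of 6 were measured, and VWF, a clotting glycoprotein, read 502 in TE13 and 313 in TE13R at 24 h, against 20.6 and 62.6 at 8 h. Of the leukocyte markers 4 of 8 were measured, and CD68, a lysosomal protein, read 3209 in TE13 and 4560 in TE13R at 24 h, against 2325 and 2169 at 8 h. The part of other cells in the results was not tested. In these bulk samples, a change in the share of cells and a change per cell cannot be told apart.

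Late changes were large, and those of the 2 lines ran alongside each other. A gene's late change is its log2(intensity + 16) at 24 h minus that at 8 h, so it understates the fold of dim genes. Of 12994 genes, 766 (5.90%) were at least 2-fold higher at 24 h in each line and 398 (3.06%) were at least 2-fold lower in each. Only 39 moved 2-fold in opposite ways, and just 3 of these lay above the detection limit on all 4 arrays. By contrast, 452 of the 766 higher genes and 318 of the 398 lower genes lay above it on all 4. The changes were also uneven in size, with 142 genes at least 4-fold higher in each line but 28 at least 4-fold lower, and 35 at least 8-fold higher but 1 at least 8-fold lower. Over all genes, whose values are not independent of each other, the late change in TE13R correlated with that in TE13 with Pearson's r of 0.658. Both changes of a gene come from separate arrays.

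In limma, with the line as a block and Benjamini-Hochberg adjustment, 3210 genes (24.7%) were called at an adjusted p under 0.05. Of these, 1793 (13.8%) were higher and 1417 (10.9%) were lower at 24 h. The fit has 1 residual degree of freedom, so most of its error was borrowed across genes, and the count fell to 0 without the mean-variance trend, where 4017 genes had an unadjusted p under 0.05. Leaving out 1 array at a time in a fit of all 6 arrays gave 129 calls without the TE13 24 h array, 766 without the TE13R 24 h array, 81 without the TE13 8 h array and 0 without the TE13R 8 h array, where 1824 genes had an unadjusted p under 0.05. The values on the arrays are therefore given for many of the genes below, while others are named with their log2 difference alone.

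**Figure D1:**
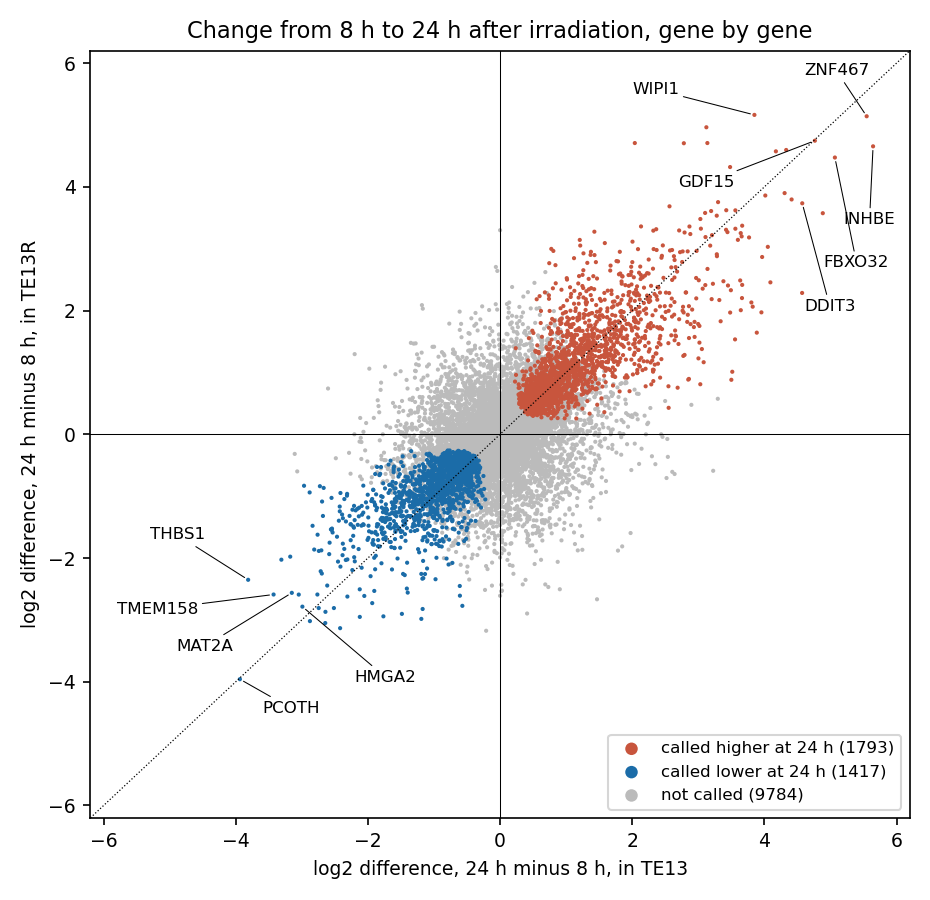
Late change of each of 12994 genes, as the log2 difference between 24 h and 8 h, in TE13R (vertical axis) against TE13 (horizontal axis), 1 point a gene. Red points were called higher (1793), blue points lower (1417) and grey points not at all. The red and blue points lie where both lines moved the same way, and the dotted line marks equal change in both.

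Among the 12 largest rises, GDF15, FBXO32 and DDIT3 were above the detection limit on all 4 arrays. GDF15, a cytokine that stressed cells secrete, measured 23457 in TE13 and 20486 in TE13R at 24 h, against 848 and 748 at 8 h. It rose 27.5-fold (ratio of geometric means), with a log2 difference of 4.76 (SE 0.11, adjusted p = 8.36e-06 from limma). FBXO32, the substrate-binding part of an E3 ubiquitin ligase known from muscle wasting, read 6193 in TE13 and 4318 in TE13R at 24 h, against 169 and 179 at 8 h, and rose 29.7-fold. DDIT3 read 7210 in TE13 and 7536 in TE13R at 24 h, against 288 and 552 at 8 h, and rose 18.5-fold (adjusted p = 2.77e-04 from limma). In these 3 genes both 24 h arrays were far above both 8 h arrays, and the lines differed from each other by less than 2-fold at either time.

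Several of the largest rises started from 8 h values below the detection limit. ZNF467, a zinc finger transcription factor, read 1165 in TE13 and 664 in TE13R at 24 h, against 9.2 and 3.3 at 8 h, which makes it at least 43.6-fold higher. INHBE, the beta E subunit of the activin and inhibin family, read 785 and 387 at 24 h, against -1.6 and -7.5 at 8 h, at least 27.3-fold higher. WIPI1, which binds the early autophagosome membrane, read 255 and 557 at 24 h, against 2.8 and -1.2 at 8 h, at least 18.7-fold higher. Here the 8 h arrays of both lines were below the detection limit, as they were for 181 of the 766 higher genes, and the limit takes their place in the bound. EDAR, the receptor of ectodysplasin in hair and gland development, was at least 16.9-fold higher on the same terms. Some of these genes were above the limit at 0 h. ZNF467 read 51.4 in TE13 and 128 in TE13R there, and WIPI1 7.2 and 200.5. EDAR read 104 and 412.7 at 0 h, the latter above its 24 h value in TE13R (379.5). INHBE was below the limit at 0 h in both lines. LDHD, a mitochondrial D-lactate dehydrogenase, ILDR1, a protein of tricellular junctions, NUPR1, a small stress-induced nuclear protein, NFE2, a transcription factor known from red blood cell precursors, and CLIC3, an intracellular chloride channel protein, were each below the limit on 1 of the 2 arrays of 8 h. Their late changes lay between 4.04 and 4.37, with adjusted p-values of 4.70e-04 to 0.00109 from limma over the 5 genes.

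The 12 deepest falls were smaller on the log2 scale than the 12 largest rises, and 6 of them were above the limit on all 4 arrays. MAT2A, the enzyme that makes the methyl donor S-adenosylmethionine in most tissues, read 705 in TE13 and 1152 in TE13R at 24 h, against 6390 and 6886 at 8 h. It was 7.36-fold lower, a log2 difference of -2.86 (SE 0.16, adjusted p = 3.23e-04 from limma). THBS1, the matrix glycoprotein thrombospondin-1, read 88.1 and 291 at 24 h, against 1447 and 1552 at 8 h, and was 9.36-fold lower. TMEM158, a membrane protein known to rise with RAS activity, read 265 and 624 at 24 h, against 3008 and 3837 at 8 h, and was 8.35-fold lower. All 3 were well measured at both times, and TE13 stood below TE13R at 24 h in each, which was not tested. PCOTH, a gene first described in prostate, fell most on the log2 scale (-3.95), with 16.3 in TE13 and 27.1 in TE13R at 24 h, against 480 and 654 at 8 h. TMEM201, of the inner nuclear membrane, was 7.67-fold lower, ZBED2, a zinc finger repressor, 7.82-fold lower, and P2RY11, a receptor for extracellular ATP whose transcripts can run together with those of its neighbour PPAN, 11.2-fold lower. PRR19 read 39.6 and 20.0 at 24 h, against 332 and 283 at 8 h. HMGA2, a chromatin protein of fetal and tumour growth, H4C9, a histone H4 gene, ENC1, an actin-binding protein, and MAST4, a kinase, were below the limit on both 24 h arrays and were at least 7.73-fold, 8.92-fold, 7.37-fold and 5.78-fold lower, in that order. A second probe of HMGA2, with at most 127, changed by -2.15 in TE13 but by -0.043 in TE13R. At 0 h, MAT2A read 17788 in TE13 and 10521 in TE13R, above its 8 h values. THBS1 and ENC1 at 0 h exceeded their 8 h values in TE13 only. The others of the 12 had their highest values at 8 h in both lines. PCOTH, for example, read 46.6 and 37.8 at 0 h, and TMEM158 182.5 and 336.

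**Figure D2:**
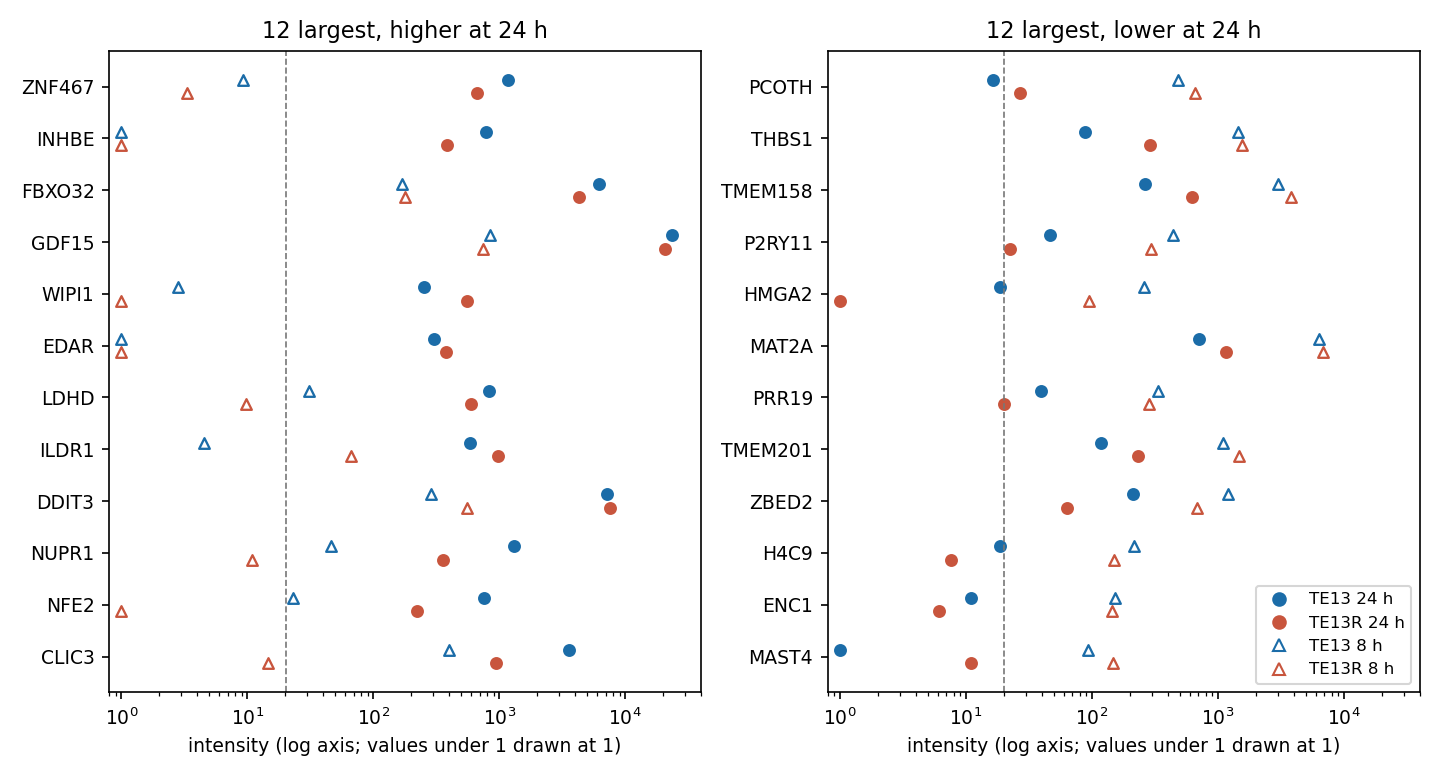
Intensity (horizontal log axis, values under 1 drawn at 1) of the 12 genes with the largest late change in each direction, on the 4 arrays: filled circles 24 h, open triangles 8 h, blue TE13, red TE13R. The dashed line is the detection limit of 20.2. In every row both circles lie on the same side of both triangles.

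ATF4 targets and genes of amino acid supply were higher at 24 h as a group. Of 40 measured genes of this list, 30 were called higher, 1 was called lower and 9 were not called, against 13.8% of all genes called higher, and the list's median late change was 1.03 (0.92 in TE13, 1.14 in TE13R) where that of all genes was -0.001. ATF4 itself, whose protein is governed mostly at translation, changed little by comparison, with 17530 in TE13 and 18131 in TE13R at 24 h, against 11290 and 11776 at 8 h (log2 difference 0.63, adjusted p = 0.00765 from limma).

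DDIT3 (4.15) and NUPR1 (4.10) had the largest late changes of the list, ahead of CHAC1 and ATF3. ATF3, a stress transcription factor, read 1936 in TE13 and 2956 in TE13R at 24 h, against 223 and 250 at 8 h, and rose 10.1-fold. CHAC1, which breaks down glutathione, read 402 and 982 at 24 h, against 9.2 and 106 at 8 h, with a late change of 3.54 and its 8 h value in TE13 below the limit. TRIB3, a pseudokinase that dampens ATF4 and DDIT3, read 19330 and 14121 at 24 h, against 3171 and 3763 at 8 h. Each of these separated the 4 arrays by time without overlap. Genes of amino acid supply rose over a wide range. Asparagine synthetase (ASNS) read 5250 and 6702 at 24 h, against 2396 and 2930 at 8 h, a log2 difference of 1.16 (SE 0.11, adjusted p = 0.00116 from limma). Also higher were the serine enzymes PSAT1 (1.63), PSPH (1.07) and PHGDH (0.65), the transsulfuration enzymes CTH (2.34) and CBS (1.57), and the transporters SLC1A4 (2.64, below the limit on both 8 h arrays), SLC6A9 (1.22) and SLC38A2 (1.11). The tRNA charging enzymes AARS1 (1.40), WARS1 (1.23), GARS1 (log2 difference 0.999), EPRS1 (0.90), SARS1 (0.69) and YARS1 (0.48) also rose, while CARS1, MARS1 and NARS1 were not called. The cystine carrier pair was among the genes not called. SLC7A11 read 1180 in TE13 and 1481 in TE13R at 24 h, against 1124 and 1432 at 8 h. Its partner SLC3A2 read 5018 and 2364 at 24 h, against 3019 and 3058 at 8 h, up in TE13 and down in TE13R.

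ATF5, a relative of ATF4 that is also governed by translation, was the 1 gene of the list called lower. It read 691 in TE13 and 521 in TE13R at 24 h, against 3064 and 4143 at 8 h. The log2 difference was -2.54 (SE 0.20, adjusted p = 6.79e-04 from limma), in the direction opposite to ATF3, DDIT3 and TRIB3 on the same arrays. Its 0 h readings, 598 in TE13 and 463 in TE13R, were close to those at 24 h, so its peak lay at 8 h.

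ER chaperones and the unfolded protein response had a median late change of 1.09 (1.33 in TE13, 0.97 in TE13R), the highest of the lists over both lines and in TE13. In TE13R the medians of the ATF4 list (1.14) and the interferon list (1.02) were higher. Of 28 measured genes 18 were called higher, none was called lower in limma and 10 were not called, against 13.8% of all genes called higher. Of the 28, 26 were higher in both lines. At an unadjusted p under 0.05, 23 were higher and 0 lower. HSPA5 (BiP), the main ER chaperone and the brake on the stress sensors, read 2530 in TE13 and 1545 in TE13R at 24 h, against 474 and 454 at 8 h. It rose 4.26-fold, a log2 difference of 2.05 (SE 0.19, adjusted p = 8.89e-04 from limma). XBP1, the factor spliced by the sensor IRE1, read 12626 and 12277 at 24 h, against 4342 and 4596 at 8 h, a difference of 1.48. CRELD1, an ER membrane protein, had the largest change of the list, with 3273 and 2787 at 24 h against 256 and 301 at 8 h, or 10.9-fold. The folding partners followed in order of size, with DNAJC3 at 1.96, DNAJB9 at 1.96, MANF at 1.49, CRELD2 at 1.48, SDF2L1 at 1.46, HSP90B1 at 1.45, DNAJB11 at 1.38, HYOU1 at 1.17, PDIA4 at 0.83 and P4HB at 0.64. PPP1R15A (GADD34), which reverses the translation block set by PERK, rose by 1.66. SEC24D, a coat protein of vesicles leaving the ER, was below the limit on both 8 h arrays and was at least 4.26-fold higher at 24 h. Not called were the translocon subunit SEC61B (-0.22) and the export factor DERL1 (-0.11).

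The promoters of this list were read because, among the lists with a motif to look for, its median late change was largest in size. The ER stress response element is a known short sequence, CCAAT and CCACG in 1 orientation with 9 bases between them. RefSeq gave 250 bases before the start of the gene (GRCh38.p14) for 25 of the 28 measured members. CCACG stood on either strand in 18 of the 25 (72.0%), against 33.3% of 27305 promoters of all genes and 42.6% of 10525 promoters of the genes tested here. CCAAT stood in 20 of the 25 (80.0%), against 33.0% and 35.3%. The letters of these motifs cannot overlap each other on either strand. The spaced pair, looked for after the values were seen, stood in 7 of the 25 (28.0%), against 0.0806% of all promoters and 0.133% of those tested, namely those of HSPA5, HSP90B1, CALR, CANX, CRELD2, XBP1 and ERO1B. Of these 7 genes 5 were called higher, and of the 18 without it 12 were. Because the list gathers known genes of the unfolded protein response, its high shares may follow from membership and are no result of these arrays. On the ATF4 list the C/EBP-ATF element (TGATGNAAT, N being any base) was also looked for, after the values were seen. It stood in 0 of 33 promoters, against 0.916% of all promoters and 0.447% of those tested. A match is a description of the letters in this window and not a bound site.

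The 3 promoters below belong to the members of the ER list with the largest late change for which a sequence was given. Capitals mark CCAAT and CCACG or their reverse complements. CRELD1 is at chr3:9933584-9933833 on the plus strand, HSPA5 at chr9:125241344-125241593 on the minus strand and DNAJC3 at chr13:95676889-95677138 on the plus strand. Each runs 5′ to 3′ on the strand of its gene and ends at the base before the start.
CRELD1: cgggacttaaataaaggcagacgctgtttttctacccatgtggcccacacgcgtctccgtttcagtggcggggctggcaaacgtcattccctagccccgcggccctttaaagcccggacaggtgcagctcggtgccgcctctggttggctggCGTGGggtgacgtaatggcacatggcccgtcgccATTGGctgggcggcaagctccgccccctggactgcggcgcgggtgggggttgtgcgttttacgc
HSPA5: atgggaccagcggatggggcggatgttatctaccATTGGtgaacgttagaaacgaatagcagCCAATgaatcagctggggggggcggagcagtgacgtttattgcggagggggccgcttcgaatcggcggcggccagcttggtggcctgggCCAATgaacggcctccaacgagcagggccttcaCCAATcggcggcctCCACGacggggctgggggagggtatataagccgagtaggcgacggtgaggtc
DNAJC3: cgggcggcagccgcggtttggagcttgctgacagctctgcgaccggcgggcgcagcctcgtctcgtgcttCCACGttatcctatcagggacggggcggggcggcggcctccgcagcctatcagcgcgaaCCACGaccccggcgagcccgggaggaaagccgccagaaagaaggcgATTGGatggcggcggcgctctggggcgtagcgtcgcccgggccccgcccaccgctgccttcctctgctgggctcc
HSPA5 holds 4 CCAAT motifs, and the last of them forms the spaced pair with the CCACG whose last base is at position -48 from the start. CRELD1 and DNAJC3 hold both motifs but not the spaced pair.

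**Figure D3:**
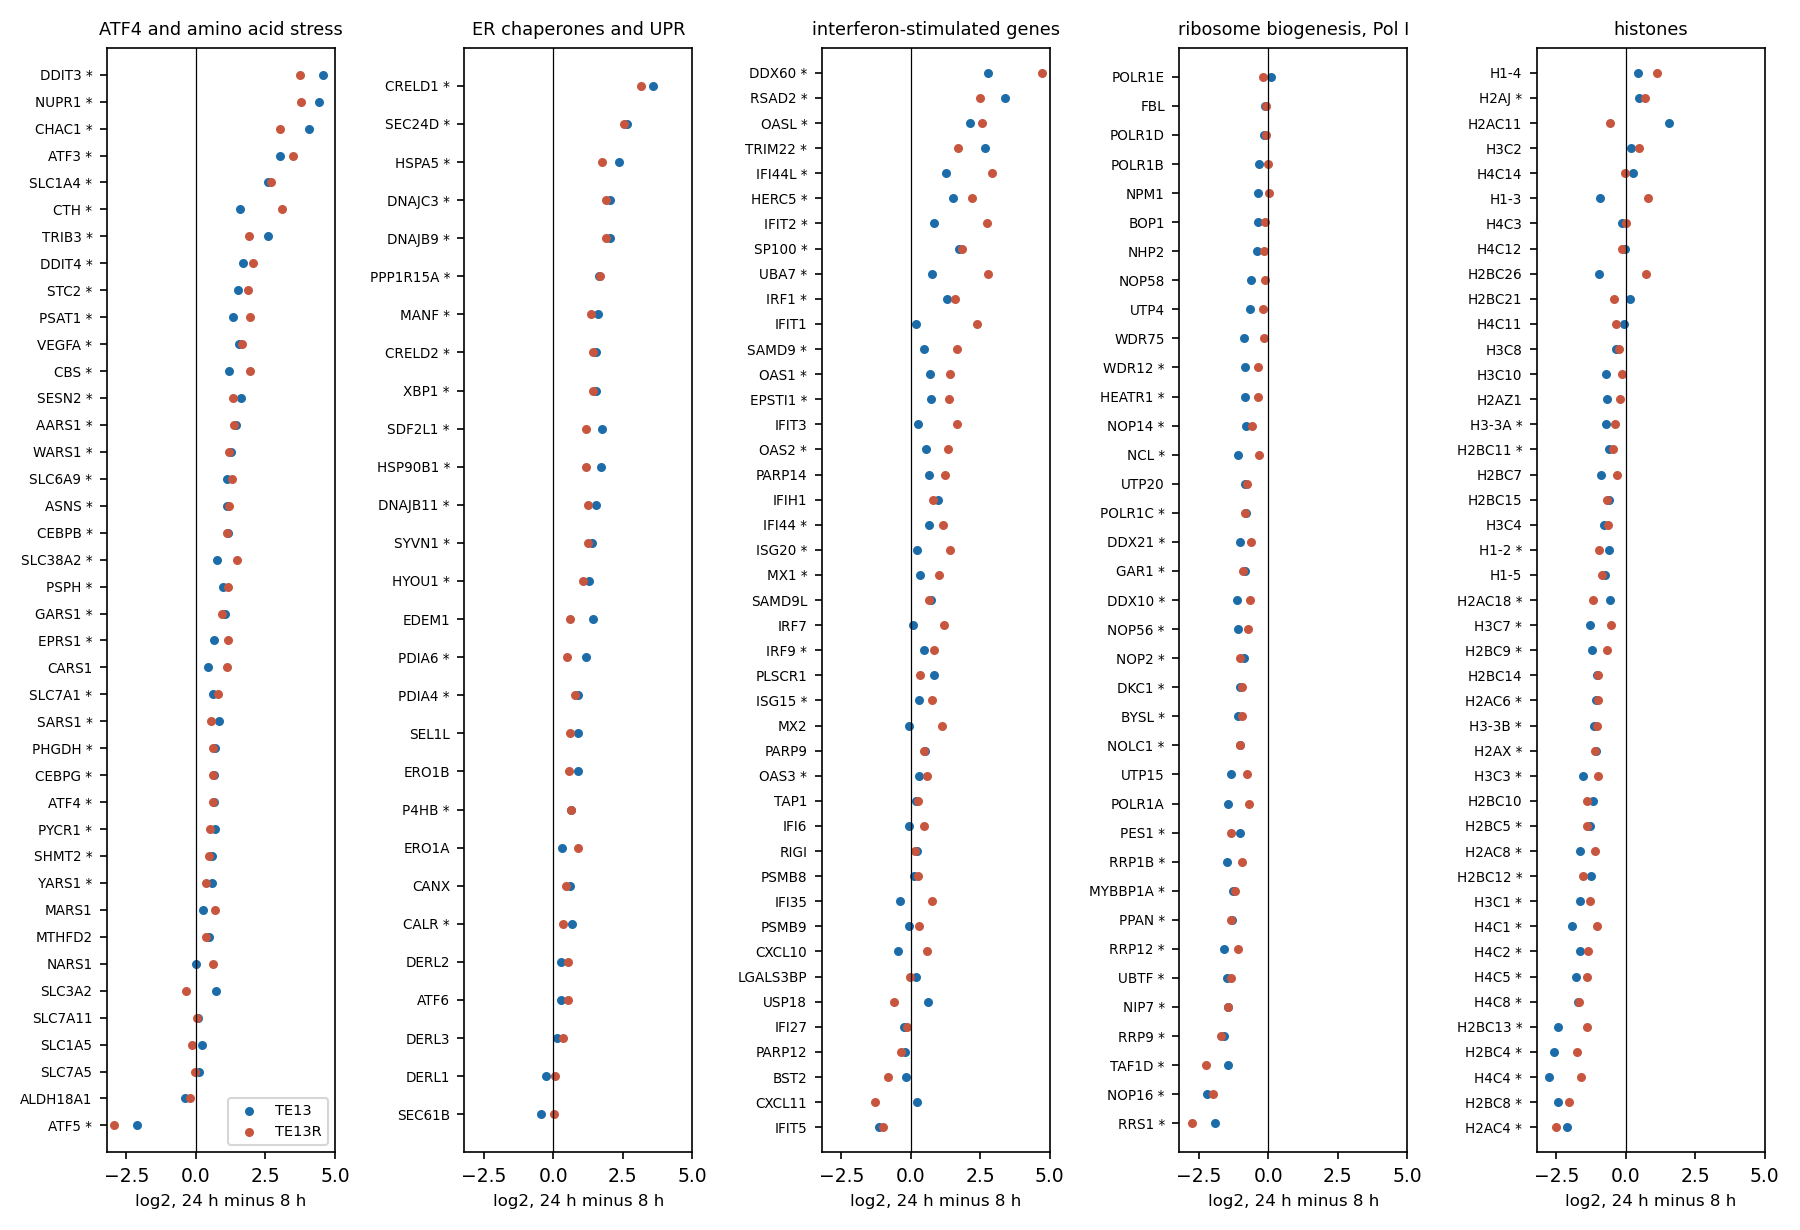
Late change (horizontal axis, log2 difference between 24 h and 8 h) of every measured member of 5 lists, 1 row a gene, blue TE13 and red TE13R. Stars mark genes called in limma. Most ATF4, ER and interferon-stimulated genes lie right of 0, and most ribosome biogenesis and histone genes lie left of it in both lines.

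Among interferon-stimulated genes, the calls all went upward, where 13.8% of all genes were called higher and 10.9% lower. Of 43 measured genes 20 were called higher, none was called lower in limma and 23 were not called, with a median late change of 0.68 (0.46 in TE13 and 1.02 in TE13R, a gap that was not tested), and 4 of the 43 were lower in both lines. At an unadjusted p under 0.05, 26 were higher and 2 lower. OASL, a sensor-linked antiviral protein, was the best measured, with 11949 in TE13 and 8697 in TE13R at 24 h, against 2718 and 1446 at 8 h (log2 difference 2.35, SE 0.14, adjusted p = 3.29e-04 from limma). DDX60, a helicase of the antiviral RNA sensing pathway, read 700 and 401 at 24 h, against 88.3 and -3.0 at 8 h. IRF1, a transcription factor of the interferon response, read 5490 and 4334 at 24 h, against 2228 and 1424 at 8 h. OASL and IRF1 were above the limit on all 4 arrays, while DDX60 was below it in TE13R at 8 h. RSAD2 (viperin) and TRIM22 were below the limit on both 8 h arrays and were at least 8.34-fold and 3.25-fold higher at 24 h. At 0 h RSAD2 read 415 in TE13 and 139 in TE13R, and TRIM22 793 and 437. Those readings lay above their 24 h values, while OASL at 0 h read below its 24 h values. The classical members IFIT1 and MX1 showed how the lines differed in size. IFIT1 read 1080 in TE13 and 1631 in TE13R at 24 h, against 950 and 300.1 at 8 h, and was not called. MX1 read 16688 and 5796 at 24 h, against 13186 and 2852 at 8 h, a log2 difference of 0.68. In both genes the 0 h arrays were higher still, with 8016 in TE13 and 3836 in TE13R for IFIT1 and 38357 and 17271 for MX1.

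Genes that make ribosomes were lower at 24 h, in contrast to the stress lists. Of 37 measured genes of ribosome biogenesis and RNA polymerase I, 24 were called lower, none was called higher in limma and 13 were not called, against 10.9% of all genes called lower. The median was -0.90 (-1.02 in TE13, -0.76 in TE13R), 35 of the 37 were lower in both lines and 0 were higher in both. At an unadjusted p under 0.05, 28 were lower and 0 higher. RRS1, an assembly factor of the large subunit, read 1270 in TE13 and 892 in TE13R at 24 h, against 4902 and 6003 at 8 h, and was 5.10-fold lower. NOP16, a nucleolar assembly factor, read 725 and 1016 at 24 h, against 3405 and 4075 at 8 h, and was 4.34-fold lower (log2 difference -2.10, SE 0.13, adjusted p = 3.88e-04 from limma). UBTF, the factor that opens ribosomal DNA for RNA polymerase I, read 267 and 329 at 24 h, against 777 and 851 at 8 h. The fall reached both the transcription side (UBTF, TAF1D, POLR1C) and the processing side (NOP56 of the methylation complex at -0.91, DKC1 of the pseudouridylation complex at -0.99, RRP9 at -1.64). FBL, POLR1B, POLR1D, POLR1E and NPM1 were not called. At 0 h, NOP16 read 808 in TE13 and 465 in TE13R, and UBTF 161 and 155, so that for these genes too the 8 h arrays held the highest values. NOP56 differed, with 14769 and 10213 at 0 h above 7972 and 8484 at 8 h.

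Genes of the ribosomal proteins themselves were called lower about as often as all genes. Of 67 cytosolic ribosomal protein genes 8 were called lower, near the 10.9% of all genes, none was called higher in limma and 59 were not called, and the median was 0.02. At an unadjusted p under 0.05, 12 were lower and 0 higher. The members called lower included RPL29 (-1.17), RPS26 (-1.14) and RPL34 (-1.05), all bright, and these families have many near-identical pseudogene copies, so their probes are uncertain. A second probe of RPL34, with at most 2006, changed by -0.29 in TE13 and 0.025 in TE13R.

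Histone genes formed the other large group that was lower at 24 h than at 8 h. Replication-dependent histone genes are made in S phase from clustered genes, and their messages end in a stem-loop rather than the usual tail. Of 43 measured histone genes 23 were called lower, 1 was called higher and 19 were not called, against 10.9% of all genes called lower and 13.8% higher. The histone median was -0.86 (-0.96 in TE13, -0.86 in TE13R). H2BC8 read 102 in TE13 and 123 in TE13R at 24 h, against 631 and 564 at 8 h, and was 5.31-fold lower. H2AC4 read 69.0 and 34.7 at 24 h, against 355 and 272 at 8 h, and was 6.35-fold lower. H2BC12, brighter than these, read 2506 and 2365 at 24 h, against 5998 and 6948 at 8 h (log2 difference -1.40, SE 0.13, adjusted p = 8.56e-04 from limma). Members of all 4 core histone families and the linker H1-2 (-0.78) were called lower. So were genes that are not tied to S phase, H3-3A (-0.54) and H3-3B (-1.10), and H2AX (-1.10), while H2AJ was the 1 member called higher (0.57). Coding sequences within each histone family are near-identical, so that single members are uncertain. At 0 h, H2BC8 read 56.2 in TE13 and 93.0 in TE13R, below its values at 24 h. H2AC4, H2BC4, H4C4, H4C9 and H2AX, like H2BC8, had their highest values at 8 h in both lines. For these genes the lower values at 24 h therefore followed a peak at 8 h. Genes of G1/S and DNA replication did not shift alike, since 2 of 45 were called higher and 5 lower, with a median of -0.11, and RRM2, a subunit of ribonucleotide reductase, had the largest change (141 in TE13 and 268 in TE13R at 24 h, against 455 and 625 at 8 h).

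**Figure D4:**
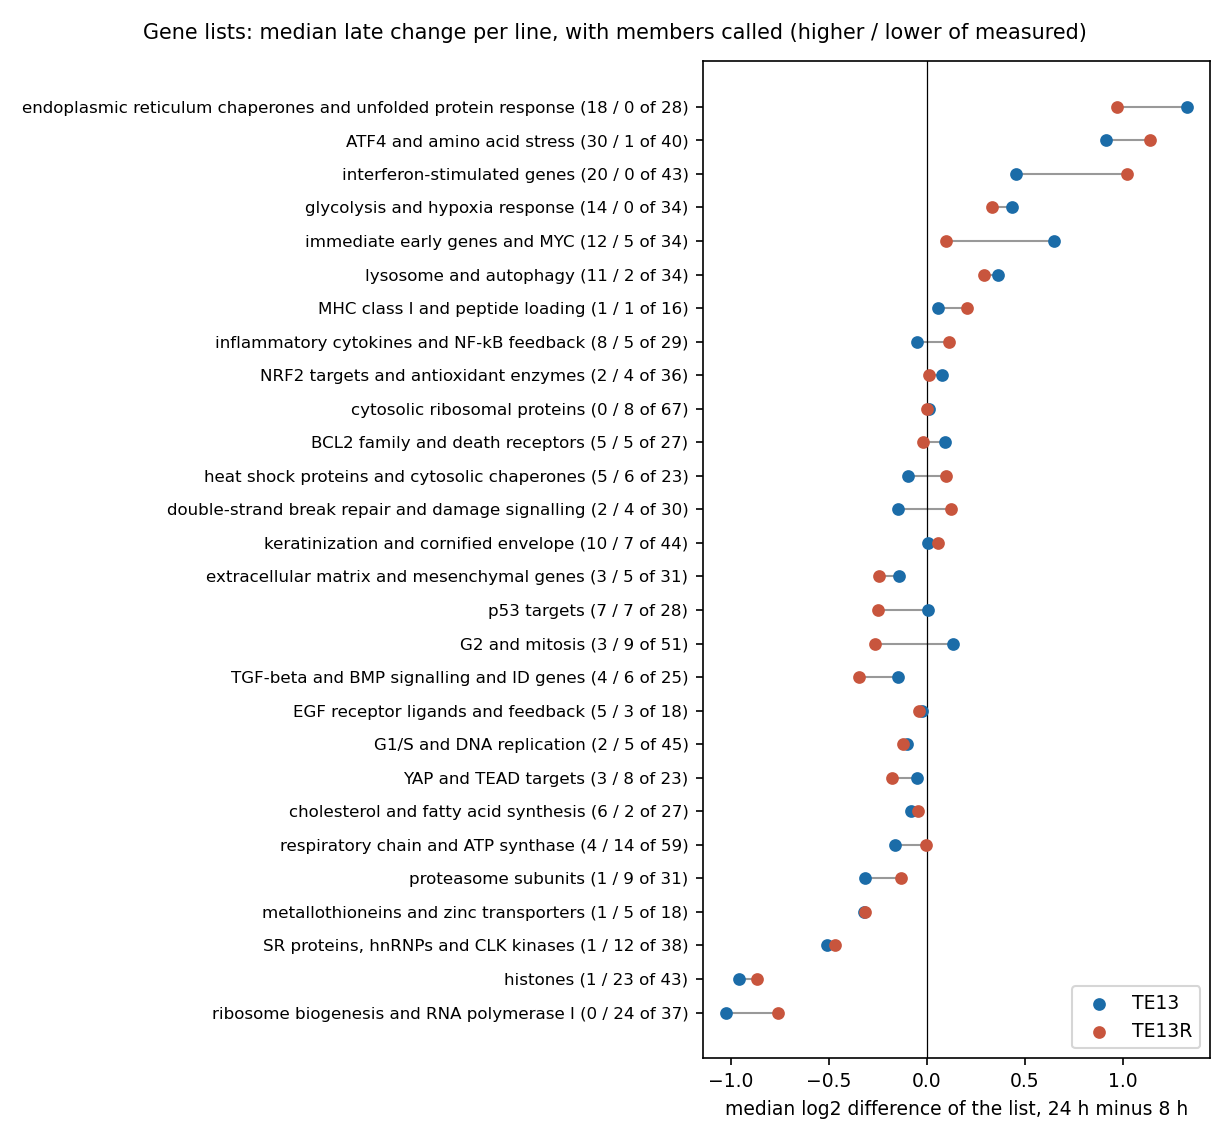
Median late change (horizontal axis, log2 difference between 24 h and 8 h) of 28 gene lists in TE13 (blue) and TE13R (red), with the members called higher and lower of those measured. Over both lines together, ER chaperones, ATF4 targets and interferon-stimulated genes had the highest medians, and ribosome biogenesis and histones the lowest. The medians of all other lists over both lines lay between -0.42 and 0.38. In TE13 alone, the immediate early list (0.65) lay above the interferon list (0.46).

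Some splicing factors were lower at 24 h. Of 38 SR proteins, hnRNPs and CLK kinases, 12 were called lower, 1 was called higher and 25 were not called, with a median of -0.42, where 10.9% of all genes were called lower. SRSF1, a founding SR protein, read 530 in TE13 and 889 in TE13R at 24 h, against 2321 and 2504 at 8 h, and was 3.51-fold lower (adjusted p = 0.00118 from limma). HNRNPH1 read 128 and 126 at 24 h, against 444 and 459 at 8 h. SRSF2 (-1.21) and SRSF6 (-1.19) were lower as well. For these factors the order over time was 0, 8 and 24 h downward in both lines, as SRSF2 showed with 24629, 7284 and 2610 in TE13 and with 15286, 7173 and 3730 in TE13R. CLK3, a kinase of SR proteins, was the member called higher (0.48).

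Targets of p53 split evenly. Of 28 measured, 7 were called higher, 7 lower and 14 were not called, where 13.8% of all genes were called higher and 10.9% lower. The median was -0.07. Higher were GDF15, also an ATF4 target, PMAIP1 (NOXA, 2.13), SESN2 (1.48), RRM2B (1.40, dim), CDKN1A (1.38), CCNG1 (0.96) and GADD45A (0.83). CDKN1A (p21), the inhibitor of cyclin-dependent kinases, read 11711 in TE13 and 11530 in TE13R at 24 h, against 4756 and 4203 at 8 h. Lower were SFN (-1.69), TP53I3 (-1.52), TRIAP1 (-1.21), AEN (-1.15), TIGAR (-0.87), RPS27L (-0.60) and ZMAT3 (-0.59). SFN (14-3-3 sigma), which holds cells in G2, read 8644 and 12452 at 24 h, against 29860 and 37625 at 8 h. CDKN1A thus had its highest values at 24 h and SFN at 8 h, in both lines. BAX, the pore-forming death protein, read 3135 in TE13 and 686 in TE13R at 24 h, against 1963 and 1887 at 8 h, and was not called.

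Genes of cell death had as many calls upward as downward. Of 27 genes of the BCL2 family and death receptors, 5 were called higher, 5 lower and 17 not at all, with a median of 0.009. Among all genes 13.8% were called higher and 10.9% lower. TNFSF10 (TRAIL) read 629 in TE13 and 248 in TE13R at 24 h, against 54.5 and 5.7 at 8 h, the last of these below the limit. HRK, a BH3-only protein, read 746 and 969 at 24 h, against 96.3 and 231 at 8 h, a log2 difference of 2.38. CASP9, the caspase of the apoptosome, read 1750 and 1671 at 24 h, against 354 and 367 at 8 h. All 3 were higher at 24 h than at 8 h in both lines. At 0 h TNFSF10 read 1120 in TE13 and 1286 in TE13R, above its 24 h values, while HRK and CASP9 read below theirs. TNFRSF10A, a receptor of TRAIL, was lower at 24 h than at 8 h (-1.32). So were MCL1 (-0.96), BOK (-0.80), BID (-0.66) and FADD (-0.45).

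Immediate early genes and MYC had more calls upward than downward. Of 34 measured 12 were called higher, 5 lower and 17 not at all, against 13.8% higher and 10.9% lower among all genes. Of the 34, 17 were higher in both lines and 9 lower in both. The median was 0.65 in TE13 and 0.10 in TE13R, a gap that was not tested. FOS read 7240 in TE13 and 3491 in TE13R at 24 h, against 827 and 643 at 8 h, and rose 6.89-fold. DUSP1, a phosphatase of MAP kinases, read 8212 and 6153 at 24 h, against 809 and 1354 at 8 h. EGR1 read 6128 and 3893 at 24 h, against 938 and 2303 at 8 h, so its late change was 2.69 in TE13 but 0.75 in TE13R. The Fos relative FOSL1 went the other way in both lines, with 2963 and 4946 at 24 h, against 8466 and 14535 at 8 h (log2 difference -1.53, SE 0.11, adjusted p = 5.75e-04 from limma). MYC read 6424 and 5353 at 24 h, against 5668 and 4458 at 8 h, and was not called.

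Of 23 targets of YAP and TEAD, 8 were called lower, 3 higher and 12 not at all, against 10.9% lower and 13.8% higher among all genes. The median of -0.11 changed sign under 3 of 10 alternatives (lowest -0.22, highest 0.10), and 11 members were lower in both lines and 9 higher in both. FJX1 read 458 in TE13 and 565 in TE13R at 24 h, against 2888 and 3147 at 8 h, and was 5.93-fold lower. CCN1, a matricellular protein, read 757 and 191 at 24 h, against 1730 and 1026 at 8 h. AJUBA (-1.72) and tissue factor F3 (-1.35) were lower too, while AXL (1.22) and GADD45B (1.15) were higher. Matrix and mesenchymal genes were mixed, with 5 of 31 called lower, among them TAGLN (-1.73), MMP10 (-1.76) and MMP3 (-1.83), and 3 higher.

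Genes of glycolysis, hypoxia and autophagy had more calls upward than downward, where 13.8% of all genes were called higher and 10.9% lower. Of 34 genes of glycolysis and the hypoxia response, 14 were called higher and none lower in limma (median 0.38), with 18 higher and 4 lower at an unadjusted p under 0.05. They included the angiogenic factor VEGFA, also on the ATF4 list, with 1162 in TE13 and 1232 in TE13R at 24 h, against 389 and 380 at 8 h. HIF1A had a late change of 2.20 on a dim probe below the limit on both 8 h arrays, and other probes of the gene disagreed in direction, at -0.29 in TE13 and 0.90 in TE13R for one of them. Of 34 lysosome and autophagy genes 11 were called higher and 2 lower (median 0.30). ULK1, the kinase that starts autophagy, read 4198 and 3793 at 24 h, against 1260 and 1385 at 8 h, and rose 3.02-fold. With WIPI1 and ULK1 rose GABARAPL1 (1.66), TFEB (1.49), MAP1LC3B (1.04), SQSTM1 (0.85) and ATG12 (0.66), which span initiation, membrane growth and cargo.

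Heat shock genes moved both ways. Of 23, 5 were called higher, 6 lower and 12 not at all, against 13.8% higher and 10.9% lower among all genes. HSPA6, a strictly stress-inducible HSP70, read 6292 in TE13 and 5074 in TE13R at 24 h, against 633 and 661 at 8 h, and rose 8.73-fold (adjusted p = 2.28e-04 from limma). HSPA1B (1.29) and HSPA1A (1.02), near-identical copies whose probes are uncertain, DNAJB1 (0.97) and HSPB1 (0.40) were also higher. The constitutive chaperone HSPA8 read 6032 and 7056 at 24 h, against 13583 and 14304 at 8 h, and HSPE1 (-0.99), DNAJA1 (-0.66), HSPH1 (-0.55), HSP90AB1 (-0.48) and STIP1 (-0.42) were lower with it.

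Cell cycle and other growth genes showed less. The counts that follow stand beside 13.8% of all genes called higher and 10.9% called lower. In double-strand break repair and in MHC class I and peptide loading they lay near or below these shares. Of 51 genes of G2 and mitosis, 3 were called higher and 9 lower, and the median was 0.13 in TE13 but -0.26 in TE13R. Of 30 genes of double-strand break repair 2 were called higher and 4 lower. CHEK2, a checkpoint kinase, read 1402 in TE13 and 734 in TE13R at 24 h, against 287 and 316 at 8 h. At 0 h it read 1208 and 1350, the latter above its 24 h value in TE13R. EGF receptor genes had 5 of 18 called higher, among them the ligand HBEGF (2.12) and the receptor inhibitor ERRFI1 (1.75), and 3 lower, among them DUSP6 (-1.40). Of 29 cytokine and NF-kB genes, IL11 (1.91), IL1A (1.80) and 6 others were higher, and TNFAIP3 (-1.43), RELB (-1.13), CXCL1 (-1.74) and 2 others were lower. Keratinization genes had 10 of 44 called higher, such as TGM1 (1.73) and DSG3 (1.54), and 7 lower, such as PI3 (-1.74) and S100A2 (-1.58). Proteasome subunits were lower in 9 of 31 and higher in 1, with a median of -0.17, and respiratory chain genes were lower in 14 of 59 and higher in 4. Metallothioneins and zinc transporters had 5 of 18 called lower and 1 higher, cholesterol and fatty acid synthesis 2 of 27 lower and 6 higher, TGF-beta and BMP signalling 6 of 25 lower and 4 higher, and MHC class I and peptide loading 1 of 16 each way.

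AKR1C3, the aldo-keto reductase that the study is about, was bright on all arrays. It read 30845 in TE13 and 31318 in TE13R at 24 h, against 25136 and 26809 at 8 h. The log2 difference of 0.26 (SE 0.12, adjusted p = 0.15 from limma) did not pass the threshold. Its close relative AKR1C2 read 48904 and 54120 at 24 h, against 43565 and 37370 at 8 h (adjusted p = 0.109 from limma). Of 36 NRF2 targets and antioxidant enzymes, the class of genes tied to oxidative stress, 2 were called higher and 4 lower, with a median of 0.05. Among all genes 13.8% were called higher and 10.9% lower. The 2 higher were SQSTM1 (0.85) and PIR (0.70), and the 4 lower were KEAP1 (-1.04), SRXN1 (-0.70), SOD2 (-0.60) and NQO1 (-0.60). The reference genes ACTB and GAPDH had late changes of -0.22 and -0.02, and neither was called.

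The 0 h arrays show where the 8 h and 24 h values stand, as a description only. GDF15 read 514, 848 and 23457 in TE13 at 0, 8 and 24 h, and 4917, 748 and 20486 in TE13R. DDIT3 read 199.7, 288 and 7210 in TE13, and 921, 552 and 7536 in TE13R. FBXO32 read 1068, 169 and 6193 in TE13, and 6920, 179 and 4318 in TE13R, so that in TE13R its 24 h value lay below its 0 h value. HSPA5 read 750, 474 and 2530 in TE13, and 2470, 454 and 1545 in TE13R. In these 4 genes TE13R stood above TE13 at 0 h by more than at 8 h. DDX60 read 3092, 88.3 and 700 in TE13, and 1140, -3.0 and 401 in TE13R, which is a dip at 8 h that was only partly made up by 24 h.

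**Figure D5:**
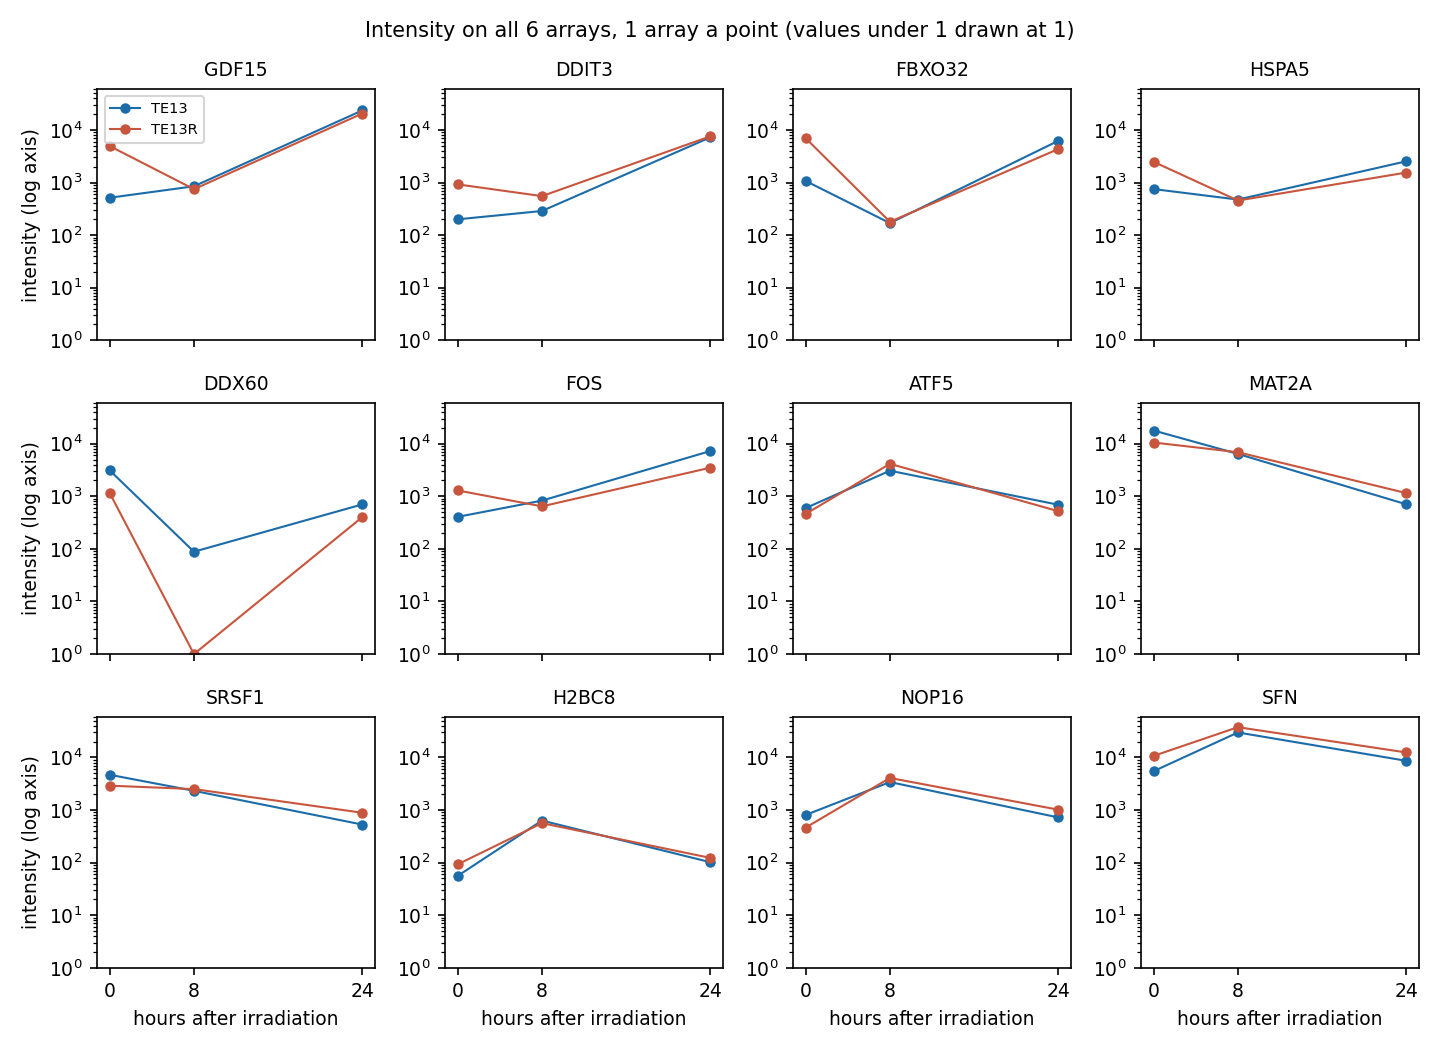
Intensity (vertical log axis) of 12 genes at 0, 8 and 24 h after irradiation (horizontal axis) in TE13 (blue) and TE13R (red), 1 array a point, chosen after their values were seen. GDF15, DDIT3 and FBXO32 end far above their 8 h values, while ATF5, NOP16, H2BC8 and SFN peak at 8 h and MAT2A and SRSF1 fall throughout. The lines join single arrays and carry no error.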

How the data were processed

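A company ran the arrays, data were collected with BeadStudio, and the authors deposited intensity values for 48803 probes, background-subtracted and brought to 1 scale. Neither the normalization nor the software version was given in the sources used here. The platform annotation named the probes, 27578 of them with 1 symbol, 13 with several and 21212 with none. Negative values became 0, and log2 was taken after adding 16. A probe was kept if it lay in the upper 50% of its array on at least 2 of the 4 arrays, and the brightest probe stood for a gene. The 24 h and 8 h arrays were compared in limma 3.58.1 (R 4.3.3) with a mean-variance trend and the line as a block, 1 residual and 6.21 prior degrees of freedom, and Benjamini-Hochberg adjustment over 12994 genes at 0.05. The code of the fit was run on data simulated from its own error model, which cannot show whether that model holds for these arrays. Lines pair the arrays because both arrays of a pair come from 1 line. Folds are ratios of geometric mean intensities, with the detection limit in place of values below it.

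Named genes are the 12 largest called changes each way, at least 1.5-fold in each line, up to 4 members of each of 32 lists, and the study's gene with its relatives and reference genes. Other genes in the text were picked with their values in view. The comparison, the lists and the rules were chosen with earlier results of these data known. Illumina's DiffScore was not computed. Alternatives were offsets of 1 and 64, quantile normalization, median centring, no, a stricter (upper 35%) and a 3-of-6 filter, all 6 arrays, no line block, no trend, the mean of probes, the methods' t-test and leaving out each array. The number of arrays, not counting error, limits the precision.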

Additional observations from a re-analysis of the deposited data

Results flagged for a closer look

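In 6 gene lists the median late change had opposite signs in TE13R and TE13 besides the fibroblast markers (-0.087 in TE13R, 0.343 in TE13, 3 genes measured), and these differences were not tested, since 1 array a line and time leaves no error for them. The median of the G2 and mitosis list was lower in TE13R than in TE13 by a difference of -0.396 on the log2 scale, that of the p53 targets by -0.255 and that of the BCL2 family and death receptors by -0.116. The median was higher in TE13R by 0.274 for double-strand break repair and damage signalling, by 0.195 for heat shock proteins and cytosolic chaperones, and by 0.165 for inflammatory cytokines and NF-kB feedback. Single genes moved 2-fold in opposite ways in 39 cases, 20 of them higher at 24 h in TE13 and 19 in TE13R, which was not tested either. The 3 that lay above the detection limit on all 4 arrays were NBPF9, NBPF10 and ZNF514. NBPF9 read 1447 in TE13 and 64.9 in TE13R at 24 h, against 513 and 497 at 8 h, and NBPF10 read 736 and 143 at 24 h, against 335 and 373 at 8 h. These 2 genes belong to a family of near-identical copies.

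Probes with no gene symbol in the annotation were left out of the comparison and also moved. Of 8698 such probes that passed the filter, 368 moved 2-fold or more in a direction that both lines shared, 174 of them higher and 194 lower at 24 h.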

How the results depend on the processing

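The 3210 calls moved most with how the error was estimated. Without the line as a block (no replicate block) 459 genes were called, with all 6 arrays in the fit 1547, and 0 without the mean-variance trend in limma (4017 at an unadjusted p under 0.05), with no filter on dim probes (3819 of 18665 unadjusted) and in the methods' t-test after Benjamini-Hochberg (2352 unadjusted). Leaving out 1 array at a time gave 0 to 766 calls, with 1824 to 3028 genes at an unadjusted p under 0.05. Those fits start from all 6 arrays, and the lone array is assumed to vary like the others. The 0 h arrays help set the difference between the lines there, so the late changes themselves also move. The other alternatives gave 2805 to 3407. The cause was not tested. The count of genes 2-fold the same way in both lines, 1164, was 1857 with an offset of 1 and 667 with 64, since the offset sets how far dim genes can move, and 1117 to 1166 otherwise. Of 129 named genes called, 0 changed direction over the alternatives run (16, and 15 for INHBE, which the 3-of-6 filter left out), but 0 stayed called without the trend, without the filter, in the t-test or without the 8 h array of TE13R. Medians of the ATF4, ER, interferon, ribosome biogenesis and histone lists kept their sign in each line and under every scaling, offset and filter tried, while the sign changed in at least 1 of these for the p53, G2 and mitosis, heat shock, YAP, BCL2, double-strand break, cytokine, keratinization, ribosomal protein, TGF-beta and fibroblast marker lists.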
